A study of Homo sapiens with 8 samples.

Results

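Among the 2006 human miRNAs on the array, 8 were described here as a set: hsa-miR-1268a, hsa-miR-1268b, hsa-miR-2392, hsa-miR-3656, hsa-miR-4472, hsa-miR-4481, hsa-miR-4701-3p and hsa-miR-4750-5p. They were picked by name because their signals were higher on the trastuzumab arrays than on the PBS arrays, so that the difference between the treatments chose them and is given below as a description. The cells were BT474, labelled ER+, HER2+ and PR+, and SKBR3, labelled ER-, HER2+ and PR+ although the methods of the study give it as PR-. Both are established breast cancer lines, and each line stands for 1 tumour of origin. Each line was kept for 144 h with trastuzumab at 6 µg/mL or with PBS, in 2 biological replicates according to the labels, and total RNA was hybridized to one-colour miRNA arrays. Of the 8 labelled arrays 7 are distinct, because the file labelled SKBR3 PBS replicate 1 holds the same values as that of BT474 PBS replicate 1 on all 62344 spots. It was used once, as BT474 PBS replicate 1, which leaves SKBR3 PBS with 1 array, and the results with all 8 arrays as labelled are given where they differ. Row 1 of the slide held every trastuzumab array and row 2 every PBS array, so treatment and slide row cannot be told apart.

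A miRNA is a short RNA that guides the silencing complex to messenger RNAs, and the bases near its 5′ end, the seed, pair with the target. miRNAs with the same seed are therefore grouped as a family with overlapping predicted targets. Trastuzumab is an antibody against HER2, a receptor tyrosine kinase of the EGFR family that these lines overexpress and that drives growth through the PI3K-AKT and MAPK pathways.

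The sequences of the 8 miRNAs were compared where one was available. RefSeq (GRCh38.p14) gave a mature sequence for 6 of them, which are printed 5′ to 3′ with the seed (bases 2 to 8) in capitals. hsa-miR-4472 and hsa-miR-3656 are named only.
hsa-miR-2392: uAGGAUGGgggugagaggug
hsa-miR-4750-5p: cUCGGGCGgaggugguugagug
hsa-miR-4481: gGAGUGGGcuggugguu
hsa-miR-4701-3p: aUGGGUGAuggguguggugu
hsa-miR-1268a: cGGGCGUGgugguggggg
hsa-miR-1268b: cGGGCGUGguggugggggug

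The genes of these miRNAs lie on 6 chromosomes, so that no pair of them shares a cluster. hsa-miR-2392 maps to chr14:100814551-100814570 (plus strand), in no other annotated gene, between DLK1, 76327 bases away, and MEG3, 11538 bases away, in an imprinted region. hsa-miR-4750-5p maps to chr19:49888177-49888198 (plus strand) within TBC1D17, which encodes a Rab GTPase-activating protein, and the lncRNA gene LOC124904743. hsa-miR-4481 maps to chr10:12653181-12653197 (minus strand) within CAMK1D, a calcium/calmodulin-dependent kinase gene. hsa-miR-4701-3p maps to chr12:48771980-48771999 (minus strand) within ADCY6, an adenylyl cyclase gene. hsa-miR-1268a maps to chr15:22225308-22225325 (minus strand), in no other annotated gene, and hsa-miR-1268b to chr17:80098831-80098850 (plus strand) within CCDC40, a gene of cilia assembly. The gene table used here does not give exons, so their place in an exon or an intron is not stated.

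The 6 sequences are short and rich in G. They measure 17 to 22 bases, and G makes up 54.5% of hsa-miR-4750-5p, 55.0% of hsa-miR-4701-3p, 58.8% of hsa-miR-4481, 60.0% of hsa-miR-2392, 70.0% of hsa-miR-1268b and 72.2% of hsa-miR-1268a. At least 50% G was found in 6 of 6, against 138 (8.18%) of the 1687 array miRNAs with a RefSeq sequence, whose median was 27.3%, and 51 (20.6%) of the 248 with a signal above the floor on any array. hsa-miR-1268a and hsa-miR-1268b have the same seed, and the shorter one is identical to the first 18 bases of the longer one, so their probes can share targets and the values of the pair are not independent. The remaining 4 seeds differ from each other and from that one. A string of the form GGUG was present in 6 of 6 sequences and in 194 of the 1687 array miRNAs, GUGGU in 5 of 6 and in 47 (2.79%), and GGUGGU in 4 of 6 and in 16 (0.948%). Of the 248 with a signal, 36 (14.5%), 11 (4.44%) and 5 (2.02%) held them, the members included. These strings overlap one another, were sought on the mature strand only and were found by comparing the members, so they are a description.

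Detected miRNAs numbered 247 to 256 on the BT474 arrays and 201 to 218 on the distinct SKBR3 arrays. Of 7 epithelial marker miRNAs, 7 were detected on every BT474 array and 2, hsa-miR-200c-3p and hsa-miR-141-3p, on the SKBR3 arrays. None of the markers of mesenchymal cells, hepatocytes and neurons was detected, of 5 blood cell markers 1 (hsa-miR-451a) was detected on 1 BT474 trastuzumab array, and of 3 muscle markers hsa-miR-1 was detected in BT474 only, at 127 to 173 on PBS and 286 to 382 on trastuzumab. The median local background was 540 to 594 on the PBS and 533 to 615 on the trastuzumab arrays. The mean of the negative control spots after background subtraction was 24.4 and 27.9 on the BT474 PBS arrays, 49.1 and 54.1 on the BT474 trastuzumab arrays, 46.5 on the SKBR3 PBS array and 45.7 and 38.9 on the SKBR3 trastuzumab arrays. The part of hsa-miR-1 or of the control spots in the results below was not tested.

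Both miRNAs that were undetected without the antibody appeared on every trastuzumab array. The summed signal, the brightness that the scanner software adds up over the spots of a miRNA, in arbitrary units, is given first as deposited, with no scaling between arrays. hsa-miR-2392 was not detected on BT474 PBS replicates 1 and 2 or SKBR3 PBS replicate 2, and measured 81.0 and 247 on BT474 trastuzumab replicates 1 and 2 and 231 and 207 on SKBR3 trastuzumab replicates 1 and 2. hsa-miR-4472 was likewise not detected on any PBS array and measured 104 and 220 on the BT474 trastuzumab arrays and 144 and 154 on the SKBR3 trastuzumab arrays. For both, the groups did not overlap in either line, and BT474 trastuzumab replicate 1 was the lowest of the trastuzumab arrays.

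hsa-miR-4750-5p and hsa-miR-4481 were faint on the PBS arrays. The summed signal of hsa-miR-4750-5p was 61.2 and 73.0 on the BT474 PBS arrays and 208 and 352 on the BT474 trastuzumab arrays, against 73.7 on the SKBR3 PBS array and 322 and 287 on the SKBR3 trastuzumab arrays. That of hsa-miR-4481 was 81.1 and 76.7 on BT474 PBS and 143 and 335 on BT474 trastuzumab, against 59.8 on SKBR3 PBS and 286 and 301 on SKBR3 trastuzumab. The treatments did not overlap, and the PBS arrays of both lines lay close together for each miRNA.

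The other 4 miRNAs were brighter and were detected on every array. The summed signal of hsa-miR-4701-3p was 411 and 472 on BT474 PBS and 827.5 and 1200.2 on BT474 trastuzumab, against 265 on SKBR3 PBS and 979 and 911 on SKBR3 trastuzumab. That of hsa-miR-3656 was 239.9 and 281 on BT474 PBS and 551 and 745 on BT474 trastuzumab, against 243 on SKBR3 PBS and 644 and 619 on SKBR3 trastuzumab. For hsa-miR-4701-3p the SKBR3 PBS array was the lowest of all, and for hsa-miR-3656 it lay between the BT474 PBS arrays. The pair with a shared seed followed one another: hsa-miR-1268a gave 353 and 407 on BT474 PBS, 751 and 1049.6 on BT474 trastuzumab, 327 on SKBR3 PBS and 965 and 906 on SKBR3 trastuzumab. hsa-miR-1268b gave 370.0 and 432 on BT474 PBS, 785 and 1208 on BT474 trastuzumab, 353 on SKBR3 PBS and 1084 and 1011 on SKBR3 trastuzumab.

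**Figure D1:**
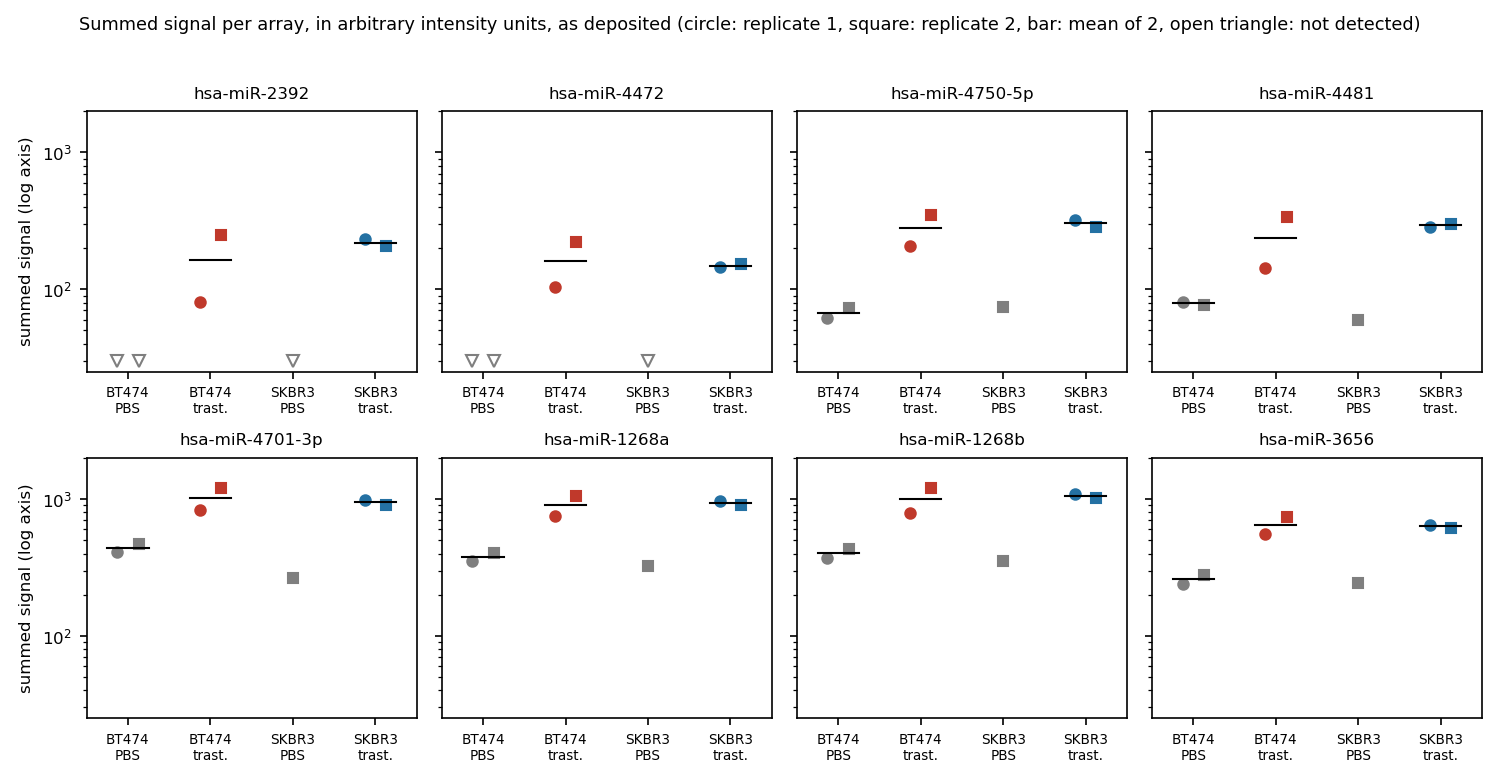
Summed signal of each of the 8 miRNAs on the 7 distinct arrays, as deposited, on a log axis, with 1 panel per miRNA (circles replicate 1, squares replicate 2, bars the mean of 2 arrays). Open triangles mark arrays on which hsa-miR-2392 or hsa-miR-4472 was not detected, and in each panel the 4 trastuzumab arrays lie above the 3 PBS arrays.

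On these unscaled signals the 4 trastuzumab arrays lay above the 3 distinct PBS arrays for 8 of 8 miRNAs, and for 22 of 307 miRNAs (7.17%) on the array as a whole. The choice of the 8 fixed this count. The trastuzumab arrays were brighter in general: over all miRNAs compared, the median unscaled difference between the treatments was 0.22 on the log2 scale in BT474 and 0.38 in SKBR3, while the median over the 8 was 1.39 and 1.94.

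The differences were then taken on log2 values after quantile normalization over the 7 arrays with a floor of 10. In BT474 the log2 difference, trastuzumab minus PBS, was 2.28 for hsa-miR-4750-5p (SE 0.22), 1.57 for hsa-miR-4481 (SE 0.40), 1.09 for hsa-miR-3656 (SE 0.09), 1.04 for hsa-miR-1268b (SE 0.17), 1.01 for hsa-miR-1268a (SE 0.10) and 0.89 for hsa-miR-4701-3p (SE 0.12). These are fold changes from 4.85 for hsa-miR-4750-5p down to 1.85 for hsa-miR-4701-3p. For the miRNAs undetected with PBS the size depended on what stood in for the missing signal. Against the lowest signal of any detected miRNA on each PBS array, hsa-miR-2392 was 8.03-fold and hsa-miR-4472 7.95-fold higher. On the mean spot intensity, which has a value on every array, the log2 difference was smaller, 1.92 (SE 0.56) for hsa-miR-2392 and 1.73 (SE 0.29) for hsa-miR-4472.

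In SKBR3 the order of the differences was not that of BT474. The log2 difference was 1.44 for hsa-miR-4481, 1.43 for hsa-miR-4701-3p, 1.31 for hsa-miR-4750-5p, 1.18 for hsa-miR-1268b, 1.08 for hsa-miR-1268a and 0.89 for hsa-miR-3656, or 2.72-fold to 1.85-fold. Their SEs of 0.02 to 0.17 rest on the 2 trastuzumab arrays, because the lone PBS array has no spread of its own. For hsa-miR-4701-3p these arrays had the same normalized value, so its SE of 0.02 comes from the spread of the other miRNAs. With no scaling between arrays its SE was 0.10. Against the lowest detected signal hsa-miR-2392 was 4.996-fold and hsa-miR-4472 3.15-fold higher, and on the mean spot intensity the log2 differences were 2.87 and 1.92. After normalization 6 of the 8 were more than 2-fold higher in both lines, where 13 of 207 miRNAs were (6.28%), and nothing is read from this count because the same contrast chose the 8.

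**Figure D2:**
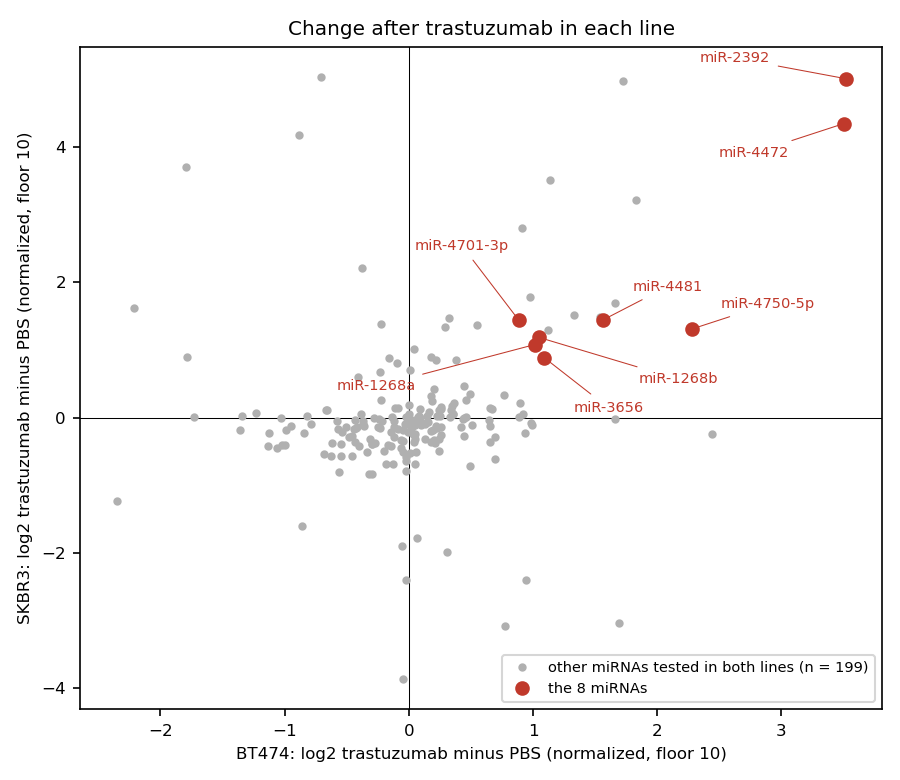
Log2 difference between trastuzumab and PBS in BT474 (x axis) and SKBR3 (y axis) after quantile normalization, for the 207 miRNAs tested in both lines. The 8 miRNAs (red) lie between 0.89 and 3.52 in BT474 and between 0.89 and 5.01 in SKBR3, and the values of hsa-miR-2392 and hsa-miR-4472 depend on the floor.

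The normalized values of the treatments did not overlap within either line for 8 of the 8. This held for 87 of 285 miRNAs in BT474 (30.5%), 51 of 227 in SKBR3 (22.5%) and 27 of the 207 tested in both lines (13.0%), and since the 8 were chosen for it, nothing is read from their count. Across the lines the picture was less uniform: all 4 normalized trastuzumab values lay above all 3 PBS values for 3 of the 8 and for 8 of 305 miRNAs (2.62%), where the unscaled signals gave 8 of 8. Quantile normalization raised the SKBR3 values relative to those of BT474, so that the SKBR3 PBS array came above BT474 trastuzumab replicate 1 for the other 5. Within a line, the direction of each difference between treatments stayed the same under all of the processing alternatives tried. The log2 values ran from 0.41 to 3.93 in BT474 and from 0.72 to 5.19 in SKBR3. The 8 were chosen for this direction on the same arrays, so nothing is read from it.

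The spots behind each summed signal were examined next. Each miRNA is measured by 2 probes of 15 spots, and for hsa-miR-4472, hsa-miR-4750-5p and hsa-miR-2392 only 1 of the 2 carried the signal. The brighter probe of hsa-miR-2392 had 0 of 30 spots well above background on the BT474 PBS arrays and 23 of 30 on the BT474 trastuzumab arrays, against 2 of 15 on the SKBR3 PBS array and 30 of 30 on the SKBR3 trastuzumab arrays. Its other probe had 0 on every array. For the brighter probe of hsa-miR-4472 the counts were 2 of 30 and 27 of 30 in BT474 and 1 of 15 and 29 of 30 in SKBR3, and its other probe too had 0 throughout.

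Among the detected miRNAs, the faint ones had fewer such spots on the PBS arrays. The brighter probe of hsa-miR-4750-5p had 8 of 30 and 30 of 30 spots well above background in BT474 and 10 of 15 and 30 of 30 in SKBR3, while the other had 1 such spot over all arrays. hsa-miR-4481 had 14 of 30 and 29 of 30 in BT474 and 6 of 15 and 30 of 30 in SKBR3 on its brighter probe. Its fainter probe had 0 of 30 and 7 of 30 in BT474 and 0 of 15 and 5 of 30 in SKBR3. The summed signal counted that probe only on BT474 trastuzumab replicate 2 and the SKBR3 trastuzumab arrays. On the brighter probe the mean spot was 2.49-fold higher in BT474 and 4.25-fold in SKBR3, against 3.02-fold and 4.91-fold on the unscaled summed signal. The fainter probe of hsa-miR-3656 had 12 of 30 and 29 of 30 in BT474 and 10 of 15 and 30 of 30 in SKBR3, and its other probe was well above background on nearly every spot. For hsa-miR-1268a, hsa-miR-1268b and hsa-miR-4701-3p both probes were well above background on nearly every spot, and no spot of any of the 8 was saturated. The mean spot intensity on the trastuzumab arrays was above that on the PBS arrays, with no overlap, for 13 of the 16 probes. The remaining 3 were the faint probes of hsa-miR-4472, hsa-miR-4750-5p and hsa-miR-2392. The 8 were chosen for such a separation and the share over all probes of the array was not computed, so nothing is read from this count.

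**Figure D3:**
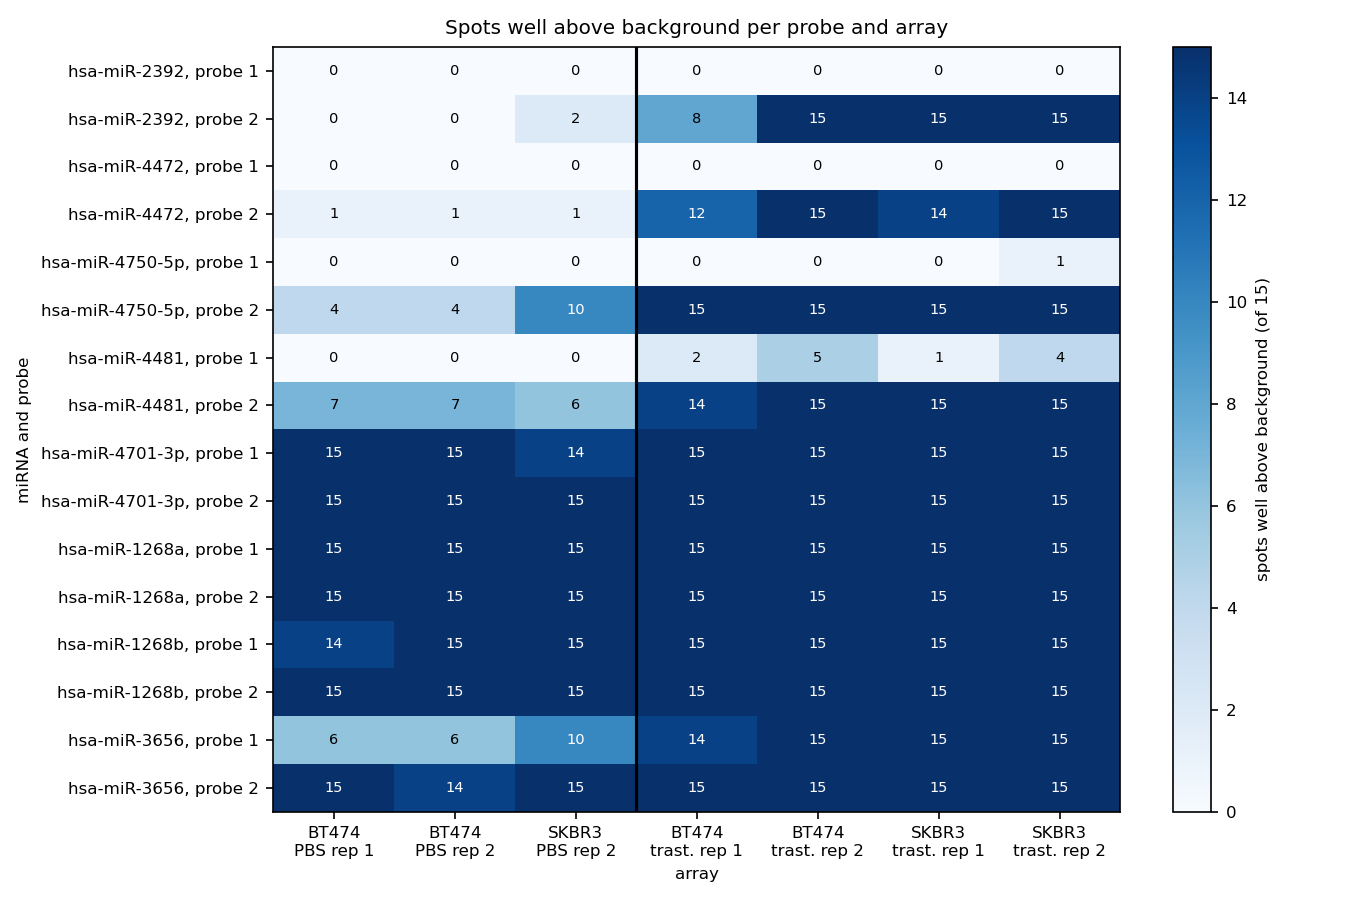
Number of spots well above background, of 15, for each of the 16 probes (rows) on the 7 distinct arrays (columns), with the PBS arrays left of the vertical line and the trastuzumab arrays right of it. The brighter probes of hsa-miR-2392 and hsa-miR-4472 go from 0 to 2 spots on the PBS arrays to 8 to 15 on the trastuzumab arrays, while those of hsa-miR-1268a stay at 15.

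In the log2 values that the authors deposited for single probes, the brighter probes of hsa-miR-2392 and hsa-miR-4472 differed between the treatments by 1.84 and 1.75 in BT474 and by 2.34 and 1.71 in SKBR3. The fainter ones differed by 0.27 and -0.37 in BT474 and by 1.53 and 0.72 in SKBR3. Both probes of hsa-miR-1268a, hsa-miR-1268b and hsa-miR-3656 lay between 0.91 and 1.22 in both lines.

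For the 8 miRNAs, replicates of one treatment lay farthest apart on the BT474 trastuzumab arrays. After normalization hsa-miR-3656 was an exception, with a log2 difference of 0.15 there and 0.16 between the SKBR3 trastuzumab arrays. On the unscaled signals BT474 trastuzumab replicate 2 was the brightest array and replicate 1 the faintest trastuzumab array for 8 of 8, with ratios of replicate 2 to replicate 1 from 1.35 for hsa-miR-3656 to 3.05 for hsa-miR-2392. Replicate 2 was the brightest trastuzumab array for 73.5%, and replicate 1 the faintest for 26.5%, of the 181 miRNAs detected on all 4. After quantile normalization 8 of 8 were still higher on replicate 2, by 0.15 to 0.98 (median 0.44) on the log2 scale, where 40.2% of the 239 miRNAs detected on both arrays were, with a median of -0.02 and an SD of 0.42. The SKBR3 trastuzumab arrays lay closer together, with normalized differences of -0.01 to 0.33 and unscaled ratios of 0.892 to 1.07. Here 6 of 8 were higher on replicate 2 (median 0.09), where 56.8% of the 199 miRNAs detected on both arrays were (median 0.04). On the BT474 PBS arrays 1 of the 6 detected miRNAs was higher on replicate 2, with normalized differences of -0.28 to 0.09 (median -0.06). Of all 239 miRNAs detected on both of these PBS arrays, 50.2% were higher on replicate 2 (median 0.01). The pairs of the 8 had Pearson correlations of 0.819 to 0.998 (median 0.963, 28 pairs) over the 7 arrays, which share one slide and the treatment contrast that chose them.

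The cell lines were compared next, over both treatments. The choice of the 8 did not use this contrast directly. It did favour signals on the trastuzumab arrays above the PBS arrays of both lines, which limits how far the unscaled lines can differ. The counts of the 8 are therefore a description. After quantile normalization 6 of the 8 were higher in SKBR3 than in BT474 at a limma adjusted p under 0.05, where 107 of 305 miRNAs were higher (35.1%) and 102 lower (33.4%). The log2 difference, SKBR3 minus BT474, was 1.71 for hsa-miR-4750-5p (SE 0.15, adjusted p = 0.00123), 1.43 for hsa-miR-4481 (SE 0.28, adjusted p = 0.0144), 1.12 for hsa-miR-1268b (SE 0.11, adjusted p = 0.00209), 1.11 for hsa-miR-1268a (SE 0.07, adjusted p = 0.000473), 1.05 for hsa-miR-3656 (SE 0.07, adjusted p = 0.000695) and 0.77 for hsa-miR-4701-3p (SE 0.08, adjusted p = 0.00219). hsa-miR-2392 (0.75, SE 0.28, adjusted p = 0.0814) and hsa-miR-4472 (0.42, SE 0.18, adjusted p = 0.1002) did not pass. Both were at the floor on every PBS array, so their values rest on the trastuzumab arrays alone. For these miRNAs the test is the same as that of the difference in response given below. The calls of the faintest miRNAs turned on single arrays: hsa-miR-4481 did not pass without BT474 PBS replicate 1, BT474 PBS replicate 2 or SKBR3 trastuzumab replicate 2 (1.54, 1.38 and 1.31), whereas hsa-miR-2392 passed without BT474 trastuzumab replicate 1 or 2 (0.51 and 1.00) and hsa-miR-4472 without replicate 2 (0.55).

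This difference between the lines depended on the scaling. With no scaling between arrays, an alternative chosen after seeing the data, the differences of the 8 ran from -0.41 for hsa-miR-4701-3p to 0.31 for hsa-miR-2392, and 0 of the 8 passed in limma, also at an unadjusted p under 0.05, while 21 of 307 miRNAs were higher (6.84%) and 165 lower (53.7%). The median of all miRNAs moved from 0.00 to -0.86 and that of the 8 from 1.08 to -0.03. With scaling to the 75th percentile 5 of the 8 passed, at log2 differences of 0.50 to 1.06 for all 8, where 91 of 307 miRNAs were higher (29.6%) and 122 lower (39.7%). With all 8 arrays as labelled 0 of the 8 passed in limma, where only 6 miRNAs passed on the array as a whole, in either direction. Of the 8, 6 had an unadjusted p under 0.05 in that setting. Relative to the median of all miRNAs the 8 lay higher in SKBR3 by 1.08, 1.12 and 0.83 under the 3 scalings. Since the choice of the 8 limits their unscaled difference between the lines, these distances too are a description.

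**Figure D4:**
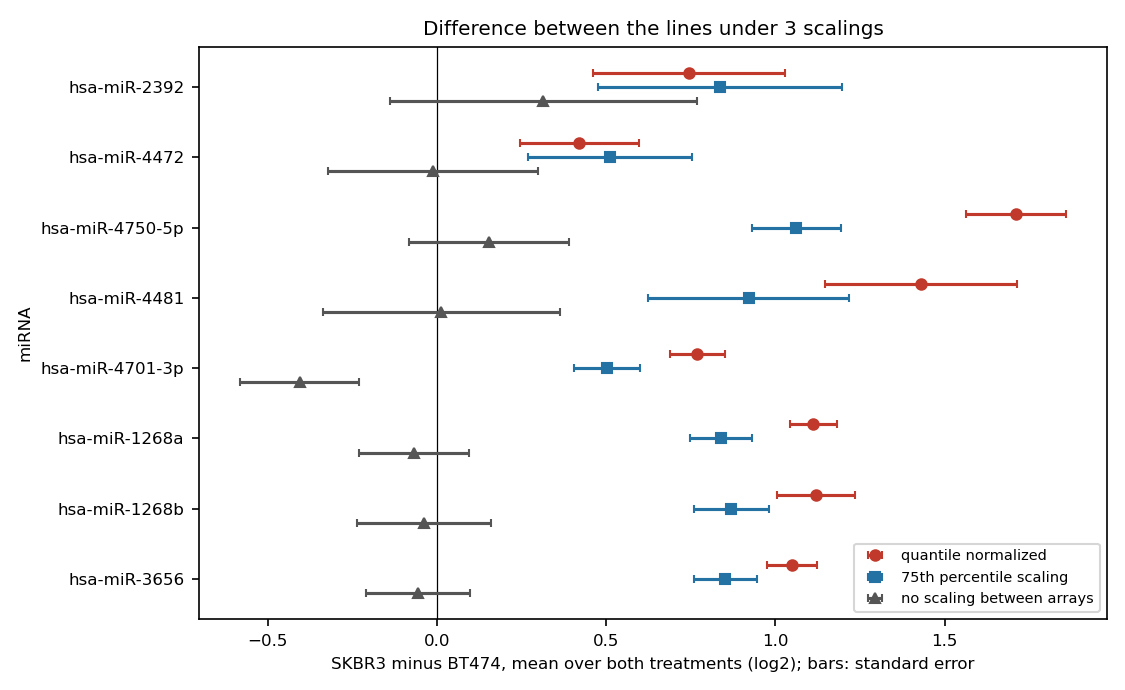
Log2 difference between SKBR3 and BT474, averaged over both treatments, for each of the 8 miRNAs under quantile normalization, 75th percentile scaling and no scaling, with standard errors from the limma fit to 7 arrays. The quantile-normalized values lie between 0.42 and 1.71 and the unscaled ones between -0.41 and 0.31.

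Whether the response itself differed between the lines was tested in the same limma fit. The 8 were chosen for a rise in both lines, so a miRNA with opposite changes could not be among them. Their count beside that of all miRNAs is therefore a description. At an adjusted p under 0.05, 0 of the 8 differed, where 49 of 305 miRNAs did (16.1%), and at an unadjusted p under 0.05 there were 2. These were hsa-miR-4750-5p, with a smaller difference in SKBR3 (-0.97, SE 0.30, adjusted p = 0.1301), and hsa-miR-4701-3p, with a larger one (0.55, SE 0.16, adjusted p = 0.121). For hsa-miR-1268a (0.06, SE 0.14), hsa-miR-1268b (0.14, SE 0.23), hsa-miR-4481 (-0.12, SE 0.57) and hsa-miR-3656 (-0.20, SE 0.15) the difference in response was of the order of its SE or smaller. hsa-miR-2392 (1.49, SE 0.57, adjusted p = 0.187) and hsa-miR-4472 (0.84, SE 0.35, adjusted p = 0.221) start from the floor in both lines, so that their value follows the trastuzumab arrays alone. The direction for hsa-miR-4750-5p, hsa-miR-4481 and hsa-miR-3656 turned under 75th percentile scaling, where 8 of 8 lay above 0 (0.30 to 1.67). Without BT474 trastuzumab replicate 1, hsa-miR-4750-5p (-1.28) and hsa-miR-2392 (1.01) passed, and without replicate 2, hsa-miR-4750-5p (-0.91), hsa-miR-2392 (2.01) and hsa-miR-4701-3p (0.62) did, the array that remains being assumed to vary like those of the other groups. A p above the threshold does not show that the lines responded alike.

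Because the sequences are rich in G, the other G-rich miRNAs were described beside them, with a miRNA called at an unadjusted limma p under 0.05 and a fold change above 2, the thresholds of the study's methods. Over all miRNAs tested 20 of 285 were called higher in BT474 (7.02%) and 18 of 227 in SKBR3 (7.93%), counts that include 7 of the 8 in each line because they were chosen for high values. Of 39 other miRNAs with at least 50% G tested in BT474, 0 were called higher and 1 lower by limma, and 8 lay above 0. Their median log2 difference was -0.24, against 0.04 for the 186 miRNAs with less G. Of those 186, 9 were called higher and 12 lower, and 104 lay above 0. With the members kept, 5 of 45 G-rich miRNAs were called higher and 14 lay above 0. Of 42 such miRNAs in SKBR3, 1 was called higher and 3 lower, with a median of -0.14, against -0.10 for 139 with less G (8 higher, 5 lower). With the members kept, 7 of 48 were called higher. The members were chosen for high values and left out on the G-rich side only, so nothing is read from these comparisons. The SKBR3 medians turned to 0.23 and 0.18 under 75th percentile scaling, and the BT474 medians were -0.50 and -0.19.

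**Figure D5:**
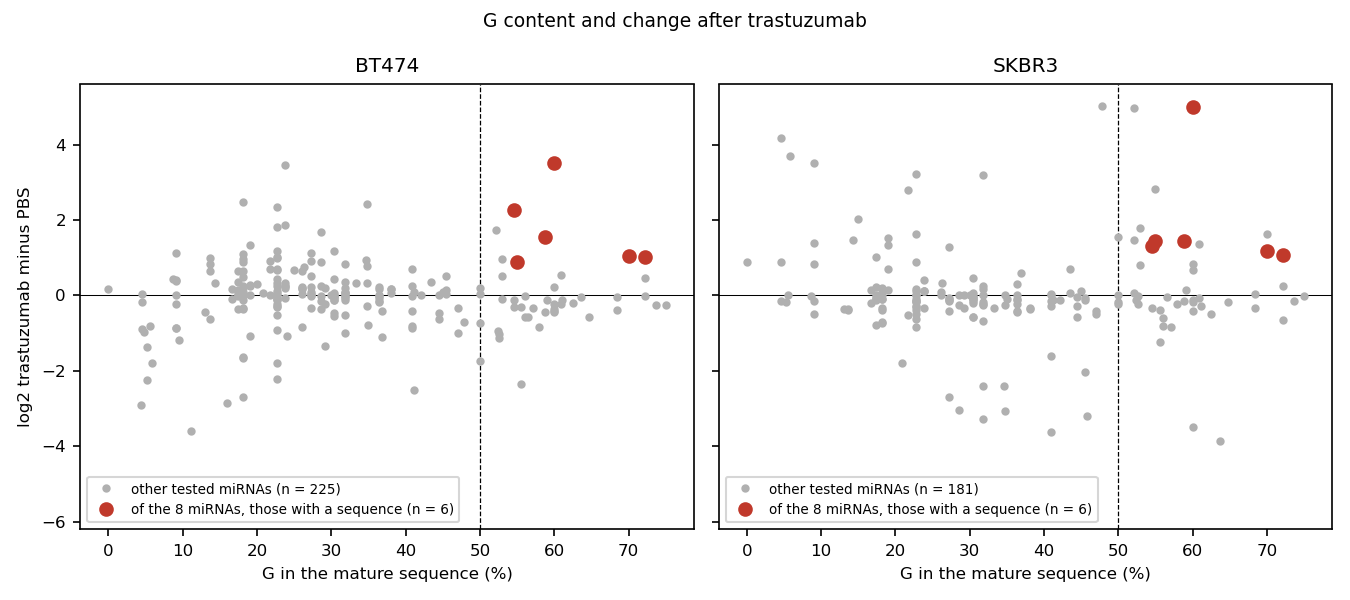
Share of G in the mature sequence (x axis, percent) against the log2 difference between trastuzumab and PBS in BT474 (left) and SKBR3 (right), for the tested miRNAs with a RefSeq sequence. The 6 sequenced members (red), chosen for high values, lie right of the dashed line at 50% and above 0. With these members left out, the 39 and 42 other miRNAs there have medians of -0.24 and -0.14.

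The shared strings were looked at in the same way, a step chosen after the values were seen. Besides 5 of the 8, 6 tested miRNAs hold GUGGU, and 4 of these were tested in SKBR3. By limma at the thresholds 0 of them were called higher in either line, and hsa-miR-224-5p was called lower in BT474. The members that hold the string were chosen for high values and are left out here, so nothing is read from this count. hsa-let-7b-5p, a let-7 family member, was detected on all 7 arrays and differed by 0.15 in BT474 and -0.07 in SKBR3. hsa-miR-497-5p, of the miR-15/16 family, was also detected on all 7 and differed by 0.26 and -0.25. hsa-miR-140-5p, detected on 3 arrays, differed by 1.12 in BT474 (SE 0.60) and 1.29 in SKBR3 (SE 1.85). hsa-miR-4483, the only other tested miRNA that also holds GGUGGU, was detected on 2 arrays and differed by 0.98 (SE 0.82) and 1.78 (SE 2.55). In BT474 alone, hsa-miR-224-5p differed by -1.07 (SE 0.30) and hsa-miR-3135b by -0.11 (SE 0.26), each detected on 4 arrays.

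Relatives of the 8 by seed and by hairpin were measured on the same arrays. hsa-miR-4745-5p, which has the seed of hsa-miR-4481, and hsa-miR-1262, which has the seed of hsa-miR-4701-3p, were detected on 0 of 7 arrays. The other arm of the hsa-miR-4701 hairpin, hsa-miR-4701-5p, was detected on all 7, at 669 and 627 on BT474 PBS, 851 and 1122 on BT474 trastuzumab, 281 on SKBR3 PBS and 794 and 634 on SKBR3 trastuzumab. Its groups did not overlap in either line. The log2 difference of this arm was 0.38 in BT474 (SE 0.15, limma adjusted p = 0.201) and 0.85 in SKBR3 (SE 0.13, limma adjusted p = 0.155), and neither passed.

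Other miRNAs followed the mean profile of the 8 over the arrays. By Pearson correlation over the 7 arrays, among 228 miRNAs detected on at least 4, the nearest were hsa-miR-181d (r = 0.972), hsa-miR-29c-5p (r = 0.966), hsa-miR-4701-5p (r = 0.938), hsa-miR-4281 (r = 0.872) and hsa-miR-3162-3p (r = 0.870). hsa-miR-181d, of the miR-181 family, measured 102 and 186 on BT474 PBS, 307 and 567 on BT474 trastuzumab, 76.2 on SKBR3 PBS and 384 and 362 on SKBR3 trastuzumab. Its log2 difference was 1.54 in BT474 (SE 0.37, limma adjusted p = 0.101) and 1.48 in SKBR3 (SE 0.03, limma adjusted p = 0.0398). hsa-miR-29c-5p was not detected on any PBS array and measured 51.5 and 83.4 on the BT474 and 63.1 and 63.2 on the SKBR3 trastuzumab arrays. With hsa-miR-29c-5p and hsa-miR-181d at the top, 19 miRNAs outside the 8 also showed no overlap between treatments in either line, and the next were hsa-miR-4701-5p, hsa-miR-29a-3p (0.89 in BT474 and 0.21 in SKBR3) and hsa-miR-34b-5p (0.44 and 0.47).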

How the data were processed

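The authors deposited, for each array, the intensity output of Agilent Feature Extraction 11.5.1.1: median spot and background intensity, background-subtracted spot intensity, a summed signal per miRNA (0.1 where not detected) and flags, with no scaling between arrays. They also deposited log2 values per probe, quantile normalized with BRB Array Tools 4.3.2, which show one distribution within a line but not across lines.

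Groups came from the labels. Here the summed signals of 2006 miRNAs on the 7 distinct arrays were quantile normalized with limma 3.58.1 (R 4.3.3), floored at 10 and log2 transformed. lmFit and eBayes were run within each line for the treatment, and over 4 group means on 7 arrays for the lines and their responses, with Benjamini-Hochberg adjustment over all miRNAs above the floor on at least 1 array. The replicate number was not used as a block. The limma fits were tested on simulated log2 values, which did not pass through the normalization or the floor. The number of arrays limits the precision. An ordinary t-test with a pooled variance and other scalings were run as alternatives. This t-test does not use the random variance model that the study names for its p-values.

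The 8 miRNAs, the marker and sequence lists and the tests were chosen with earlier results of these data known. Besides the 8, the text names miRNAs with their seeds or from their hairpins, the 5 nearest to their mean profile among those detected on at least 4 arrays, and the 5 largest of those above PBS in both lines. Sequences and genes were taken from RefSeq tables (GRCh38.p14), which matched 1687 of 2006 miRNAs.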

Additional observations from a re-analysis of the deposited data

How the results depend on the processing

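The differences of the 8 miRNAs between trastuzumab and PBS kept their direction in both lines under every alternative run. The 8 were chosen for this direction on the same arrays, so nothing is read from it. The 20 miRNAs called higher in BT474 became 13 with 75th percentile scaling, 71 with the mean spot intensity, 41 with the deposited log2 values and 0 with normexp background correction, where limma still gave 345 at an unadjusted p under 0.05 without the fold threshold. The 18 called higher in SKBR3 became 31, 65, 60 and 16 in the same order, 31 with no scaling between arrays (chosen after seeing the data) and 11 with the ordinary t-test, which is not the random variance test of the study. That test called 15 higher in BT474. After Benjamini-Hochberg adjustment, in either direction and at any fold, it left 3 of 76 miRNAs with an unadjusted p under 0.05 in BT474 and 0 of 22 in SKBR3, where limma left 41 of 104 and 15 of 68. Leaving out 1 array at a time gave 15 to 26 in BT474 and 14 to 24 in SKBR3.

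For the difference between the lines, 209 miRNAs passed, 342 with the mean spot intensity, 404 with normexp and 6 with all 8 arrays as labelled, and 187 to 206 with 1 array left out. With no scaling the differences of hsa-miR-4472 (-0.0116), hsa-miR-4701-3p (-0.4057), hsa-miR-1268a (-0.0685), hsa-miR-1268b (-0.0386) and hsa-miR-3656 (-0.0562) turned.

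For the difference in response, 49 miRNAs passed, 76 with the mean spot intensity, 83 with normexp, 5 with all 8 arrays as labelled, 25 with no scaling, and 29 (without SKBR3 trastuzumab replicate 1) to 74 (without BT474 trastuzumab replicate 2) with 1 array left out. Under normexp 3 of the 8 passed. The direction of hsa-miR-4750-5p turned with 75th percentile scaling (0.2992), normexp (0.2781), all 8 arrays (0.1612) and no scaling (0.0258). That of hsa-miR-3656 turned in the same settings (0.3444, 0.1703, 0.3863 and 0.071), and so did that of hsa-miR-4481 (1.0997, 0.6282, 0.5553 and 0.8263), also with the mean spot intensity (0.6393). That of hsa-miR-4472 turned with no scaling (-0.0232). With 1 array left out the value ran from -0.5526 to 0.217 for hsa-miR-4481, -0.0202 to 0.1171 for hsa-miR-1268a and -0.0512 to 0.2817 for hsa-miR-1268b.

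With the replicate number as a block, the response differed between the lines for 22 miRNAs, hsa-miR-4481 turned to 0.0226, and calls higher in BT474 numbered 19. The samples share only a number: the deviations of the same-numbered BT474 arrays correlated at 0.101 over 285 miRNAs, for 1 pair of groups. Nothing could be computed without SKBR3 PBS replicate 2, the only distinct PBS array of that line, and the SKBR3 alternatives that leave out an array or add the block used the fit to all distinct arrays. The causes of these shifts were not tested. Precision is limited by 7 arrays and, for hsa-miR-2392 and hsa-miR-4472, by signals at the limit of detection on the PBS arrays.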
